A study of Mus musculus with 4 samples.

Results

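Molecular chaperones and protein-folding enzymes were examined in thioglycolate-elicited mouse peritoneal macrophages cultured overnight with TGFb2 or with its PBS vehicle. The genes were chosen by symbol alone: those whose symbol in the probe-to-gene table starts with Hspa, Hspb, Hspd, Hspe, Hsph, Hsp90, Dnaja, Dnajb, Dnajc or Pdia, those named Cct with a digit, and Calr and Canx. This gave 61 genes of the 8251 with a probe set of their own, measured by 86 probe sets. By textbook location, 35 of them were placed in the cytosol, 13 in the endoplasmic reticulum (ER), 6 in mitochondria and 7 elsewhere. The last 7 include the nuclear J proteins Dnajc8 and Dnajc9. The symbol rule also takes in Hspbp1, an exchange factor of Hsp70, and Hspb11, an intraflagellar transport protein that is no folding chaperone.

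All cells came from female BALB/c mice of 6-8 weeks that received the thioglycolate irritant 4 days before collection, so both groups carry the same elicitation. The TGFb2 group (2 arrays) received porcine TGFb2 in serum-free medium, at an amount the labels give as 5 ng without a volume, and the PBS group (2 arrays) received PBS in the same medium. The adherent cells used for RNA were above 95% F4/80+ per the labels. The labels do not say whether replicates came from separate animals or cultures, so the p-values measure only array-to-array spread, and part of that may be technical. In bulk RNA, fewer cells of a type and less RNA per cell cannot be told apart.

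Chaperones of the Hsp70 class bind exposed hydrophobic stretches of unfolded proteins and release them in an ATP-driven cycle. J proteins (the Dnaj genes) deliver clients and trigger ATP hydrolysis, and exchange factors such as the Hsp110 proteins reset the cycle. Hsp90 finishes the folding of kinases and receptors, and the ring-shaped chaperonins CCT (cytosol) and Hsp60 with Hsp10 (mitochondria) enclose whole proteins. In the ER, BiP (Hspa5) and Grp94 (Hsp90b1) work beside the lectin chaperones calnexin and calreticulin and the protein disulfide isomerases (the Pdia genes). The cytosolic set is known to be induced by heat shock factor through heat shock elements, and the ER set by the unfolded protein response through ER stress response elements.

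The values are MAS5 signals, background-corrected intensities on a linear scale, with trimmed means of 150.1 on each array. Macrophage markers were present at high level, with summed signals of 17214 and 17821 on the TGFb2 arrays and 15601 and 16507 on the PBS arrays over 7 genes. Markers of fibroblasts and mesothelium summed to 1713 and 1492 with TGFb2 and to 2352 and 1631 with PBS over 10 genes, of which Msln and Krt19 lay below the level filter. Neutrophil markers summed to 741 and 826 with TGFb2, against 299 and 339 with PBS, over 7 genes, a sum carried by S100a8, while S100a9, Ngp, Ltf and Mpo lay below the filter. Markers of B cells (4 genes) summed to 332 and 208 with TGFb2 and 359 and 314 with PBS, and those of T cells (5 genes) to 44.5 and 54.2 with TGFb2 and 74.4 and 37.4 with PBS. Markers of mast cells (5 genes) summed to 257 and 202 with TGFb2 and 168 and 130 with PBS, and those of eosinophils (3 genes) to 28.2 and 15.4 with TGFb2 and 10.6 and 8.5 with PBS. Above the level filter lay 4 markers of B cells, 1 of T cells, 2 of mast cells and 0 of eosinophils. The ratio of the 3′ to the 5′ control probe set, a measure of RNA integrity, was 0.707 and 0.777 with TGFb2 and 0.799 and 0.837 with PBS for Gapdh, and lay between 1.04 and 1.12 on the 4 arrays for Actb. The part that other cells or RNA quality have in the values below was not tested.

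Chaperone transcripts differed little between TGFb2 and PBS. Of the 61 genes, 53 had a probe set above the level filter (a mean signal of about 24.0 over the 4 arrays) and were tested. With limma, 0 of the 53 passed an adjusted p of 0.05, where 1.21% of the 5639 genes tested on the arrays did (0.887% higher and 0.319% lower with TGFb2). At an unadjusted p under 0.05 there were 5 (Hspd1, Hsp90aa1, Dnajb9, Dnajb13 and Dnajc8), which is 9.43% of the tested chaperone genes beside a background of 12.1%. Of these, 1 was higher and 4 were lower, where 6.06% of all genes were higher and 6.01% lower at that level. Both TGFb2 arrays lay above both PBS arrays in 8 of the 53 genes and below them in 18, beside 22.1% and 21.7% of all genes. The median difference of the 53 genes was -0.045 on the log2(signal + 15) scale, beside 0.0027 for the 5639 genes, and the median size of the difference regardless of sign was 0.20 beside 0.19. For 49 of the 53 genes the 95% interval of the difference lay inside a 2-fold change in either direction (log2 of -1 to 1), whereas this held for 83.3% of the 5639 genes. The 4 genes with a wider interval were Hspd1, Hspa1l, Dnajb13 and Pdia5.

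**Figure D1:**
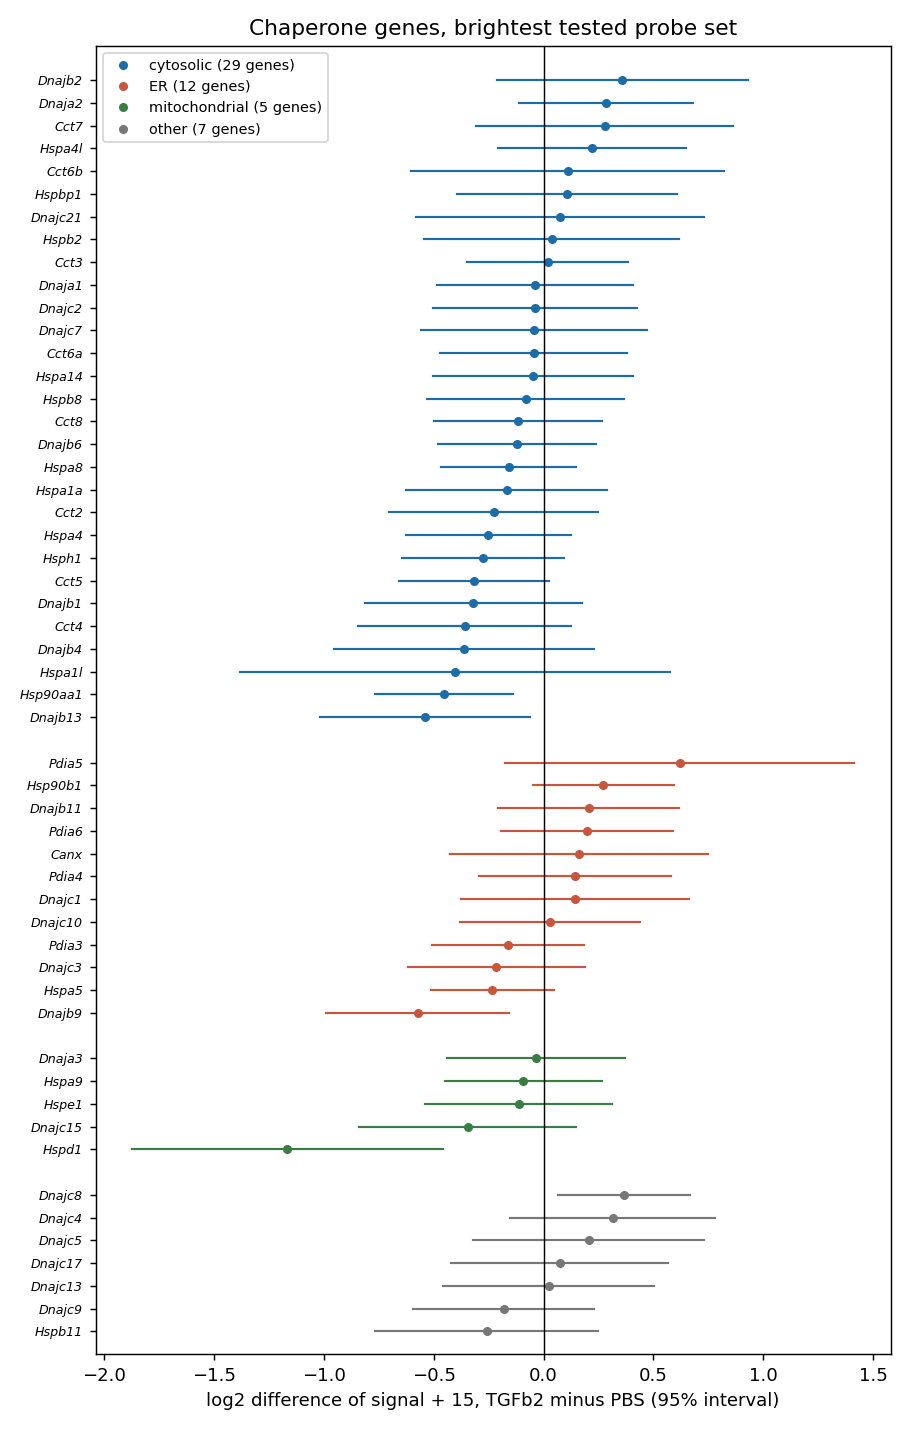
Log2 difference of signal + 15, TGFb2 minus PBS, for the 53 tested chaperone genes (points, brightest probe set) with 95% intervals of the limma fit (lines), grouped by location. The intervals of Hspd1, Hsp90aa1, Dnajb13, Dnajb9 and Dnajc8 do not include 0, and Hspd1 lies farthest from 0 at -1.17.

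The 8 genes that were not tested had low signals on every array. The highest single value among them was 28.8, for the heat-inducible Hsp70 gene Hspa1b on a PBS array. Hspa1b gave 11.2 and 18 with TGFb2 and 28.8 and 25 with PBS, so both TGFb2 values were below both PBS values, at a level close to background. The probe set of calreticulin (Calr), an ER lectin chaperone, gave 4.0 and 17.3 with TGFb2 and 1.3 and 6.1 with PBS, and so carried no usable level. The small heat shock protein gene Hspb1 gave 18.9 and 5.0 with TGFb2 and 1.8 and 9.9 with PBS, with overlapping groups. Hspa2, an Hsp70 best known from testis, gave 14.6 and 11.4 with TGFb2 and 3.3 and 5.1 with PBS, the opposite order to Hspa1b. The others were Dnajb3, Dnajb5, Dnajb8 and Dnajc11. A probe set below the filter is not evidence that the gene was silent, because the sources used here give no detection calls.

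The cytosolic Hsp70, Hsp110 and Hsp90 genes lay mostly lower with TGFb2, by small amounts. Of 8 tested, 7 had a negative difference, and in 6 both TGFb2 arrays lay below both PBS arrays, while 0 passed the test and 1 had an unadjusted p under 0.05. That pattern was found in 21.7% of all genes. Joining these families was not among the planned comparisons. With the small heat shock proteins and Hspbp1 added, 8 of 11 differences were negative, and in 7 both TGFb2 arrays lay below both PBS arrays. Hsp90aa1, the stress-inducible cytosolic Hsp90 and the only cytosolic Hsp90 gene analysed, had signals of 1095 and 1149 with TGFb2 and 1464 and 1621 with PBS. The groups did not overlap, with a log2 difference of -0.45 ± 0.13 (SE) and an interval of -0.76 to -0.14 (limma adjusted p = 0.22). Over 12 alternative settings its difference stayed between -0.53 and -0.38.

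Hspa8, the constitutive Hsp70 also called Hsc70, had signals of 1372 and 1438 with TGFb2 and 1658 and 1485 with PBS. The higher TGFb2 array and the lower PBS array were close, and the difference was -0.16 ± 0.13 (SE, adjusted p = 0.71). Hsph1, an Hsp110 exchange factor that is itself heat-inducible, had 442 and 518 with TGFb2 and 574 and 591 with PBS, again without overlap, at -0.28 ± 0.16 (adjusted p = 0.57). Its relative Hspa4 had 297 and 276 with TGFb2 and 354 and 332 with PBS in its brightest probe set, at -0.25 ± 0.16 (adjusted p = 0.62). Of 4 tested probe sets of Hspa4, 2 differed by 0.11 and 0.043 and the dimmest by -0.51, so its direction depended on the probe set. Hspa4l, the exception in direction, had 118 and 124 with TGFb2 and 93.7 and 109.7 with PBS, a difference of 0.22 ± 0.18 (adjusted p = 0.71).

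Hspa1a, which with its near-identical neighbour Hspa1b encodes the heat-inducible Hsp70, was low, at 60.2 and 63.3 with TGFb2 and 73.8 and 68.7 with PBS. The groups did not overlap, but the difference of -0.17 ± 0.20 (SE) was smaller than its error (adjusted p = 0.79), and short probes may not tell these near-identical genes apart. Hspa14, a ribosome-associated Hsp70, differed by -0.048. Hspa1l, a testis-enriched Hsp70, had 46.9 and 10.9 with TGFb2 and 31.2 and 45.8 with PBS, and its interval ran from -1.38 to 0.57. Of the small heat shock proteins, which hold unfolded proteins without ATP, Hspb8 differed by -0.082 and Hspb2 by 0.037 (adjusted p = 0.92 and 0.98). Hspbp1 had 383 and 257 with TGFb2 and 276 and 306 with PBS, a difference of 0.11 ± 0.21 (SE) whose TGFb2 arrays lay on either side of the PBS arrays.

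Cytosolic J proteins did not share a direction. Of 13 genes, 10 were tested, of which 3 had a positive and 7 a negative difference, with a median of -0.041 and a range of -0.54 to 0.36. Dnajb1, the classical heat-inducible partner of Hsp70, had 70.3 and 99.7 with TGFb2 and 105 and 111.9 with PBS, at -0.32 ± 0.21 (SE, adjusted p = 0.63). Dnaja1, a major constitutive J protein, had 410 and 311 with TGFb2 and 340 and 397 with PBS, so the groups crossed (-0.038, adjusted p = 0.97). Dnajb6, a suppressor of protein aggregation, had 673 and 573.5 with TGFb2 and 672 and 683 with PBS in its brightest probe set (-0.12, adjusted p = 0.82), and its other probe set read 201 and 256 with TGFb2 against 320 and 320 with PBS (-0.47 ± 0.18, adjusted p = 0.37).

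The most negative cytosolic value belonged to Dnajb13, a J protein known from sperm and cilia, with 63.0 and 52.5 with TGFb2 and 82.5 and 99.0 with PBS. The difference was -0.54 ± 0.21 (SE, adjusted p = 0.37), and its other probe set, between 2.0 and 12.1 on all arrays, lay below the filter. Dnajb2, a J protein of neurons that feeds clients to the proteasome, was the most positive, with 38.9 and 48.5 with TGFb2 and 29.1 and 32.2 with PBS (0.36 ± 0.25, adjusted p = 0.64). Dnaja2 read 169 on both TGFb2 arrays, against 134 and 139 on the PBS arrays (0.29 ± 0.17, adjusted p = 0.59).

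The CCT ring, which folds actin and tubulin, was represented by 8 genes, all tested. They include both Cct6a and Cct6b, and the symbol rule leaves out the ring subunit Tcp1. Of the 8 genes, 5 had a negative and 3 a positive difference, with a median of -0.080 and a range of -0.36 to 0.28, and 0 passed. Cct5 had 744 and 858 with TGFb2 and 988 and 1008 with PBS, without overlap (-0.32 ± 0.15, SE, adjusted p = 0.47). Cct4 had 593 and 869 with TGFb2 and 839 and 1019 with PBS, where TGFb2 replicate 2 lay between the PBS arrays (-0.36 ± 0.21, adjusted p = 0.58). Cct7 went the other way through a single array, with 765 and 439 with TGFb2 and 495 and 458 with PBS (0.28 ± 0.25, adjusted p = 0.73). In 3 of the 8 genes (Cct2, Cct5 and Cct8) both TGFb2 arrays lay below both PBS arrays, beside 21.7% of all genes. Tcp1, counted below with the related cytosolic genes, had 71.3 and 90.5 with TGFb2 and 109.5 and 111.5 with PBS. Its difference was -0.40 ± 0.19 (SE, limma adjusted p = 0.50).

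**Figure D2:**
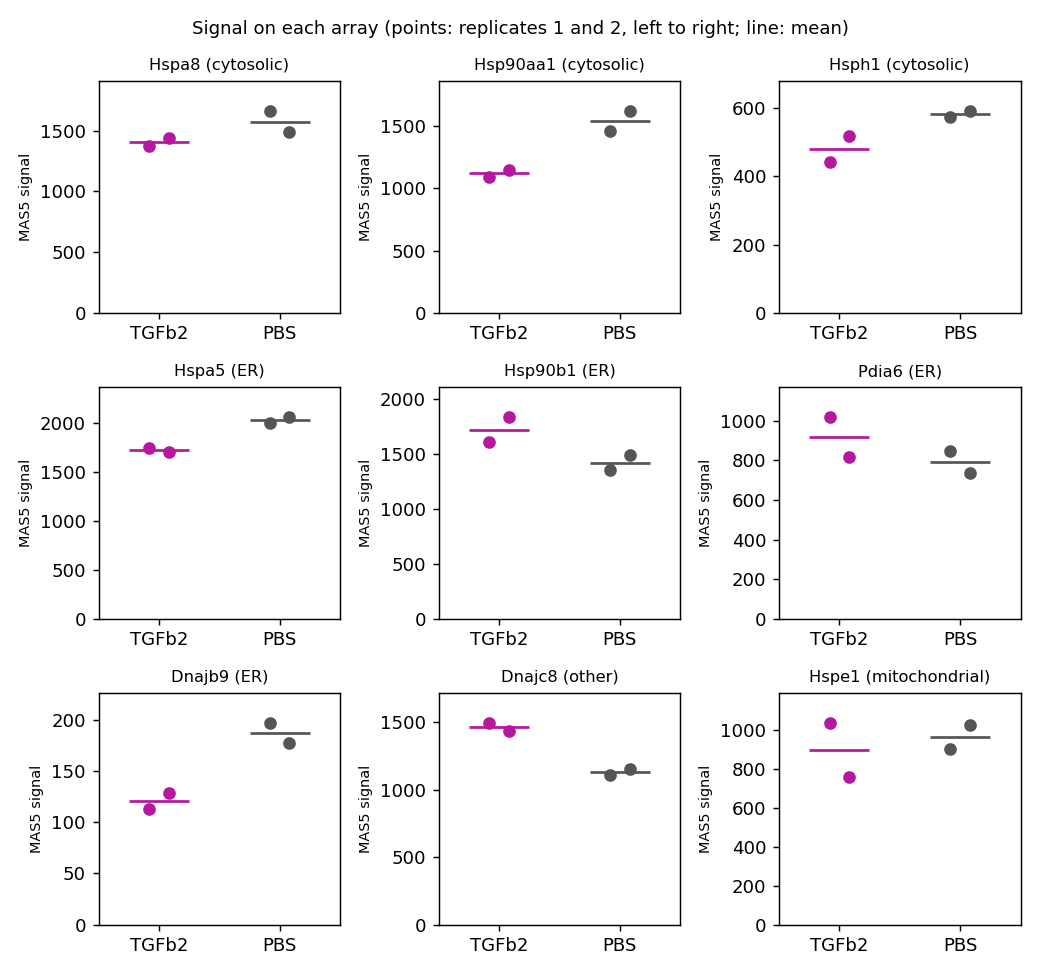
MAS5 signal (linear axis from 0) on each array for 9 chaperone genes, with TGFb2 on the left and PBS on the right of each panel. Points are the 2 arrays of a group and lines their means. Groups do not overlap for Hspa8, Hsp90aa1, Hsph1, Hspa5, Hsp90b1, Dnajb9 and Dnajc8, and overlap for Pdia6 and Hspe1. The 9 genes were picked by hand and leave out Hspd1. Groups were without overlap for 49.1% of the tested chaperone genes and 43.8% of all tested genes.

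In the ER, BiP and Grp94 lay on opposite sides of their PBS values. Hspa5 (BiP), the Hsp70 of the ER and a regulator of its stress sensors, had 1749 and 1705 with TGFb2 and 2001 and 2063 with PBS, a log2 difference of -0.23 ± 0.12 (SE, limma adjusted p = 0.52). Hsp90b1 (Grp94), the Hsp90 of the ER, had 1603 and 1831 with TGFb2 and 1351 and 1483 with PBS, a difference of 0.27 ± 0.14 (adjusted p = 0.51). Both pairs of groups were free of overlap, and both intervals included 0 (-0.51 to 0.048 for Hspa5 and -0.047 to 0.59 for Hsp90b1). The sign of each was the same under all 12 alternatives.

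Both genes are classical targets of the unfolded protein response. The ER stress response element (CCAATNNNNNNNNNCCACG, searched on both strands in windows of 250 bases before to 50 after each RefSeq start, GRCm38.p6) was found in 0.119% of 32851 promoter windows. Among the chaperone genes, 53 of 61 had a window, and the element was in 6 of the 13 ER genes, in 0 of 30 cytosolic and in 0 of 4 mitochondrial genes with a window. Its matches, written along the element's own strand with the fixed letters in capitals, are shown to compare the spacers:
Hspa5: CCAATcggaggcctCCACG
Hsp90b1, distal: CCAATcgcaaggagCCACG
Hsp90b1, proximal: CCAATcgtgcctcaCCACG
Calr: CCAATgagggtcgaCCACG
Canx: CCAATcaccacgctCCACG
Pdia6: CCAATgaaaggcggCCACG
Dnajc3: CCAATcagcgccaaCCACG

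The windows of Hspa5 (chr2:34771840-34772139, plus strand) and Hsp90b1 (chr10:86705395-86705694, minus strand) are printed whole, 5′ to 3′ along the gene, because these genes carry the same element and had differences of opposite sign. Capitals mark the element, on the gene's strand for Hspa5 and for the distal match of Hsp90b1, and on the other strand for its proximal match.
Hspa5 promoter: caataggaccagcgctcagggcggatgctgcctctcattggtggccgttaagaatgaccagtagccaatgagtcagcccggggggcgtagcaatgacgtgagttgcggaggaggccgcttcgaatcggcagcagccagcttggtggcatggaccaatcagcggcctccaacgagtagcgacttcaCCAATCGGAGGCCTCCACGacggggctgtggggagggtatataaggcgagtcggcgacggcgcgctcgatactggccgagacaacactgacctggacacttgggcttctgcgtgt
Hsp90b1 promoter: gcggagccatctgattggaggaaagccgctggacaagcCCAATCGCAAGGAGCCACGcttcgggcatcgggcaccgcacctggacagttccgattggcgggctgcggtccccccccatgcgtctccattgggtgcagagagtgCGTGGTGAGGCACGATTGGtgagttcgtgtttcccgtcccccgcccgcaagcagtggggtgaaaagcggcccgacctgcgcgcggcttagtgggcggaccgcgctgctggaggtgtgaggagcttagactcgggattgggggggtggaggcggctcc

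The match of Hspa5 ends 46 bases before the start, and those of Hsp90b1 end 193 and 88 bases before it. The letters of an element do not show that a factor is bound. Of the 6 genes with the element, 5 were tested, of which 3 had a positive difference (Hsp90b1, Pdia6 and Canx) and 2 a negative one (Hspa5 and Dnajc3).

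The disulfide isomerases with a Pdia symbol, which form and shuffle disulfide bonds, had positive differences in 3 of 4 tested genes, and 0 passed. The symbol rule leaves out others, such as P4hb and Txndc5, which are given below with a related list and differed in opposite directions. Pdia6 had 1018 and 815 with TGFb2 and 849.5 and 738 with PBS in its brightest probe set, with overlap (0.20 ± 0.17, SE, adjusted p = 0.71). Its other probe sets, 1 of which shares its source sequence with the brightest, read 690.0 and 520.1 with TGFb2 against 486.5 and 501 with PBS (0.27), and 224.5 and 218 with TGFb2 against 182 and 205 with PBS (0.18). All 3 were positive, and both of these were without overlap. Pdia4 differed by 0.15 ± 0.19 (adjusted p = 0.82) with overlapping groups.

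Pdia5 had 44.2 and 28.0 with TGFb2 and 26.8 and 10.8 with PBS, near the level filter, and its difference of 0.62 ± 0.34 (SE, adjusted p = 0.55) had a wide interval of -0.18 to 1.41. Pdia3, the isomerase that works with calnexin and calreticulin on glycoproteins, had 573 and 643 with TGFb2 and 679 and 683 with PBS (-0.16 ± 0.15, adjusted p = 0.74). Canx (calnexin) had 127 and 216 with TGFb2 and 136 and 158 with PBS (0.16 ± 0.25, adjusted p = 0.86), where the TGFb2 arrays lay on either side of the PBS arrays, and its other probe set differed by -0.083.

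ER J proteins, the partners of BiP, split by gene. Dnajb9, which is known in the unfolded protein response as a BiP partner in degradation and in restraining Ire1, had 113 and 129 with TGFb2 and 197 and 177 with PBS. The groups were well apart, at -0.57 ± 0.18 (SE), with an interval of -0.99 to -0.16 (adjusted p = 0.24). Its other probe set read 97.9 and 147 with TGFb2 and 166 and 141 with PBS, with overlap and a difference of -0.32 ± 0.22 (adjusted p = 0.66). Dnajc3, an inhibitor of the kinase Perk and a BiP co-chaperone, had 139 and 154 with TGFb2 and 166 and 177 with PBS (-0.21 ± 0.17, adjusted p = 0.70), and its other tested probe sets differed by -0.36 and -0.14. Dnajb11, a soluble BiP partner in folding, had 295 and 284 with TGFb2 and 225 and 276 with PBS (0.21 ± 0.18, adjusted p = 0.72). Dnajc10, a disulfide reductase, differed by 0.030 and Dnajc1, of the ER membrane, by 0.14, both with overlap.

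Mitochondrial chaperones held the farthest value of the whole set. Hspd1 (Hsp60), the chaperonin barrel of the matrix, had 548.5 and 1170.3 with TGFb2 and 1796 and 1839 with PBS in its brightest probe set. Both TGFb2 arrays lay below the PBS arrays, with TGFb2 replicate 1 far below TGFb2 replicate 2, at a log2 difference of -1.17 ± 0.30 (SE), an interval of -1.87 to -0.46 and a limma adjusted p of 0.16. The other probe set had 166 and 135 with TGFb2 and 108 and 85.6 with PBS. It went the other way without overlap, at 0.57 ± 0.20 (adjusted p = 0.32), and the suffix _r_at of its identifier marks a probe set that passed fewer of the manufacturer's design rules. The spread of 1.73 between these probe sets was the widest among the 11 chaperone genes with several tested probe sets.

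The count of passing chaperone genes turned on this probe set. Without TGFb2 replicate 2, Hspd1 differed by -1.70 and passed (adjusted p = 0.0281), and without TGFb2 replicate 1 it differed by -0.63 (adjusted p = 0.20). With the replicate number as a block it also passed (adjusted p = 0.00233), and the least favourable alternative, without the level filter, gave 0.35. The brighter probe set was negative and the dimmer one positive under each of these settings.

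Hspe1 (Hsp10), the lid of the Hsp60 barrel, did not follow the brighter Hspd1 probe set. It had 1034 and 758 with TGFb2 and 899 and 1022.5 with PBS, with crossed groups and a difference of -0.11 ± 0.18 (SE, adjusted p = 0.87). Hspd1 and Hspe1 lie side by side on opposite strands of chromosome 1. Of the 300 bases of the Hspe1 window, 285 are shared with 1 window of Hspd1 on the opposite strand. The other Hspd1 window (chr1:55088194-55088493, minus strand) shares 4 bases with it and does not hold the heat shock element. The Hspe1 window (chr1:55087898-55088197, plus strand) is printed because it nearly covers 1 of the windows of Hspd1, with the heat shock element in capitals.
Hspe1 promoter, shared with Hspd1: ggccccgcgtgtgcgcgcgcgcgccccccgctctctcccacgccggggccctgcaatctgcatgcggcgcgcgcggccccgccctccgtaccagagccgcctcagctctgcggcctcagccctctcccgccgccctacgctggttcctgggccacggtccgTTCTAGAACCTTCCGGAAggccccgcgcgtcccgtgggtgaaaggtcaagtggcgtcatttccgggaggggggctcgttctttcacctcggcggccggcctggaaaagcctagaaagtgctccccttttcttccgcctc

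The capitals hold 2 overlapping matches, 1 on each strand, of the heat shock element, searched as GAANNTTCNNGAA on both strands and present in 0.603% of the 32851 windows. Among the chaperone genes it was in 4 (Hspd1, Hspe1, Hsph1 and Dnajb6), all tested. By location, it was in 2 of 30 cytosolic, 2 of 4 mitochondrial and 0 of 13 ER genes with a window. Only this exact pattern was searched, so a gene without a match may still hold a heat shock element. The matches along the element's strand were:
Hspe1, plus strand of the window: GAAccTTCcgGAA
Hspe1, minus strand of the window: GAAggTTCtaGAA
Hsph1: GAActTTCcaGAA
Dnajb6: GAAtcTTCcgGAA

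All 4 of these genes had a negative difference in their brightest probe set (-1.17 for Hspd1, -0.28 for Hsph1, -0.12 for Dnajb6 and -0.11 for Hspe1), and 0 passed. Differences were negative for 58.5% of the tested chaperone genes and 49.7% of all tested genes. Hspd1 and Hspe1 share the same matches. In Hsph1 the match lies after the start of transcription. Hspe1 turned positive without TGFb2 replicate 2 (0.11), and the Hspd1 probe sets disagree in sign, so the shared sign depends on the array and the probe set.

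The other mitochondrial genes had smaller differences. Hspa9 (mortalin), the Hsp70 that pulls proteins into the matrix, had 546 and 614 with TGFb2 and 641 and 597 with PBS (-0.093 ± 0.15, SE, adjusted p = 0.88), with overlap. Dnaja3, its J protein, had 297 and 253.5 with TGFb2 and 299 and 265 with PBS (-0.034 ± 0.17, adjusted p = 0.97). Dnajc15, a J protein at the import channel, had 123 and 108 with TGFb2 and 126.5 and 179 with PBS (-0.34 ± 0.21, adjusted p = 0.60). Its groups did not overlap, but PBS replicate 1 was within a few units of TGFb2 replicate 1.

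Of the 7 genes placed outside these compartments, 5 had a positive difference and 0 passed. Dnajc8, a nuclear J protein linked to splicing, had 1493 and 1433 with TGFb2 and 1109 and 1154 with PBS, without overlap (0.37 ± 0.13, SE, adjusted p = 0.32). Its dimmer probe set had 547 and 379 with TGFb2 and 384 and 588 with PBS (-0.060). The identifiers carry the suffix _f_at for the brighter and _r_at for the dimmer probe set. Dnajc9, a nuclear J protein that handles histones, differed by -0.18 ± 0.18 and Hspb11 by -0.26 ± 0.22 (adjusted p = 0.76 and 0.71), and Dnajc4 had 132 and 100.0 with TGFb2 against 89.3 and 89.9 with PBS.

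Where several probe sets measured a gene, they often disagreed in sign. Of 11 such genes, 6 had the same sign in every tested probe set (Cct5, Dnajb6, Dnajb9, Dnajc2, Dnajc3 and Pdia6) and 5 did not (Canx, Cct3, Dnajc8, Hspa4 and Hspd1). Leaving Hspd1 aside, the range between probe sets of a gene ran from 0.090 for Pdia6 to 0.62 for Hspa4, beside a median size of 0.20 for the difference of a chaperone gene. Dnajc2, a ribosome-associated J protein, had -0.039 in its brightest probe set and -0.50 ± 0.20 (adjusted p = 0.38) in the other, which read 121.5 and 160 with TGFb2 against 191 and 217 with PBS. The identifier of its brightest probe set carries the suffix _f_at, and that of the other carries none.

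**Figure D3:**
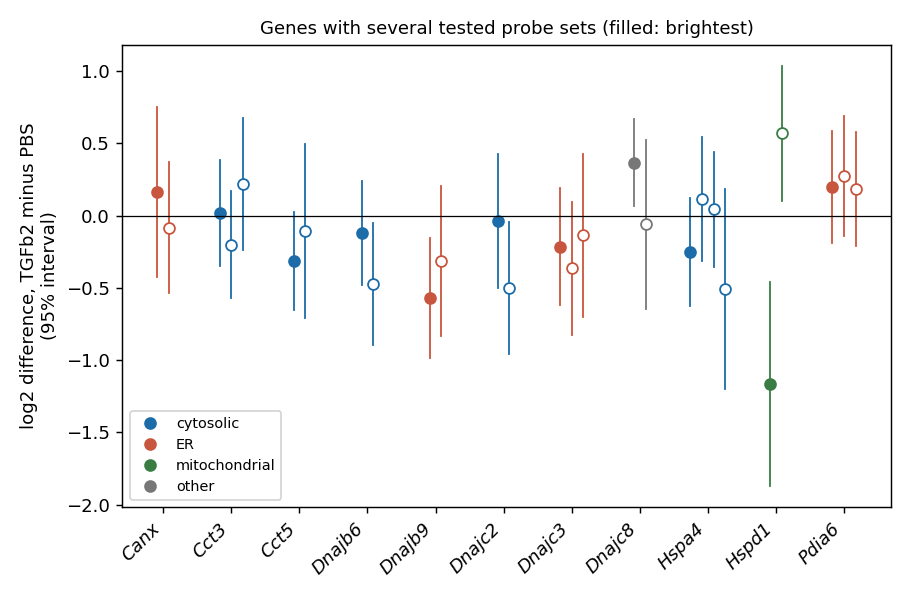
Log2 difference, TGFb2 minus PBS, with 95% interval for each tested probe set of the 11 chaperone genes that have several, coloured by location. Filled points are the brightest probe set of a gene. Those of Hspd1 stand on opposite sides of 0 (-1.17 and 0.57), and those of Pdia6, Dnajb9 and Dnajc3 each lie on 1 side.

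Set side by side, the ER genes centred above 0 and the cytosolic genes below it. The median difference was 0.14 over 12 ER genes (8 positive, 4 negative) and -0.082 over 29 cytosolic genes (9 positive, 20 negative), a gap of 0.23 with no test, since genes are not replicates. The median of all 5639 genes was 0.0027. Groups without overlap were found for 7 of 12 ER genes (3 higher, 4 lower) and 15 of 29 cytosolic genes (3 higher, 12 lower), beside 43.8% of all genes (22.1% higher, 21.7% lower). The median over the 5 mitochondrial genes was -0.11, with 5 of 5 negative, and 3 of 5 without TGFb2 replicate 2.

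The gap depended on TGFb2 replicate 2. As a mean over genes of the deviation from each gene's own average, the ER minus cytosolic level was -0.0022 and 0.15 on the TGFb2 arrays and -0.063 and -0.086 on the PBS arrays. Without TGFb2 replicate 2 the gap of the medians was 0.040, the ER median was -0.039 with 7 of 12 genes negative, and 17 of 29 cytosolic genes were negative. The cytosolic Hsp70, Hsp110 and Hsp90 genes kept 6 of 8 negative in that setting and 7 of 8 without any other single array. Within ER classes the arrays differed too, with the isomerases averaging 0.19 and 0.014 from their own means with TGFb2 and 0.045 and -0.25 with PBS. The dim Pdia5, with 44.2 on TGFb2 replicate 1 and 10.8 on PBS replicate 2, weighs heavily on these averages.

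**Figure D4:**
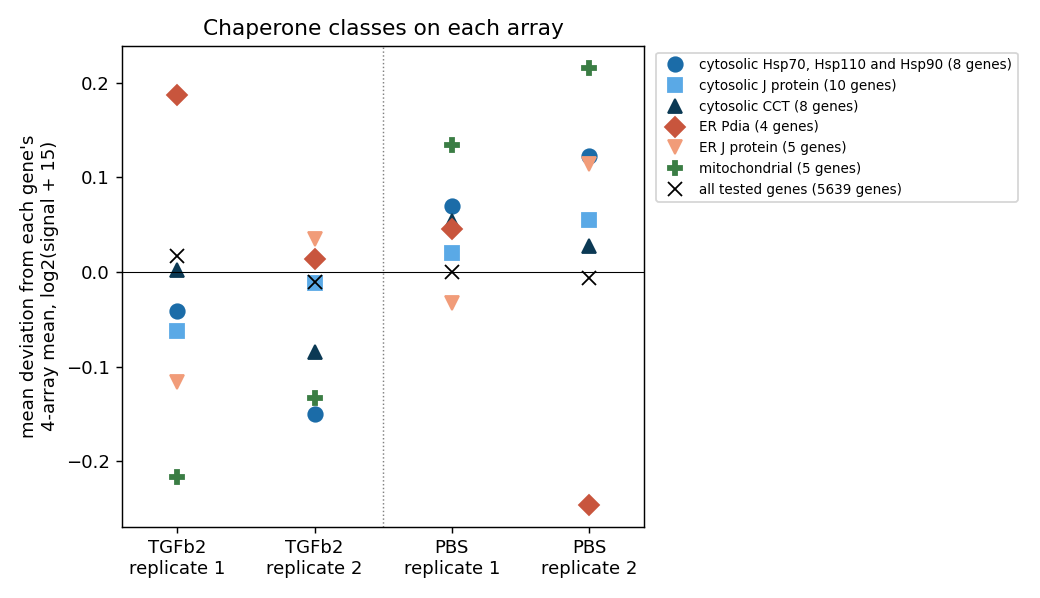
Mean deviation of each chaperone class on each array from the 4-array mean of each gene, on the log2(signal + 15) scale, with TGFb2 arrays on the left and PBS arrays on the right. The mean of the mitochondrial genes, Hspd1 included, lies lower on both TGFb2 arrays (-0.22 and -0.13 with TGFb2, 0.13 and 0.22 with PBS). The brightest Hspd1 probe set, with 548.5 on TGFb2 replicate 1, weighs heavily on the mitochondrial value there, and the other Hspd1 probe set went the other way. The mean of the cytosolic Hsp70, Hsp110 and Hsp90 genes also lies lower with TGFb2 (-0.042 and -0.15 with TGFb2, 0.069 and 0.12 with PBS). The dim Hspa1l, with 10.9 on TGFb2 replicate 2 and overlapping groups, weighs heavily on the value of that class there. All tested genes lie within 0.02 of 0.

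Genes around the chaperones were counted from 4 lists. Of 37 tested genes of the unfolded protein response and ER folding, 1 rose, 0 fell and 36 did not pass, with a median of 0.013 and an unadjusted p under 0.05 for 2 that were higher and 3 that were lower. Across all genes 1.21% passed and 12.1% had an unadjusted p under 0.05, so these counts are close to the background. The member that rose was Serpinh1, the collagen-specific chaperone of the ER, with 331 and 224 with TGFb2 and 65.6 and 46.1 with PBS. Its log2 difference was 2.04 ± 0.24 (SE), at an adjusted p of 0.0193, and the groups were far apart. That call was lost without TGFb2 replicate 1 (adjusted p = 0.0857), without the level filter (0.107) and without the intensity trend (0.0549). Of 8 tested markers of fibroblasts and mesothelium, which make collagen, Col1a1 was higher with TGFb2 and Dcn lower, and their part in this value was not tested. Serpinh1 lay far outside the range of the ER genes of the symbol set, whose highest difference was 0.62. Further disulfide isomerases of the list, picked with their values in view, were Txndc5, with 314 and 331.5 with TGFb2 and 167 and 212 with PBS (0.73, adjusted p = 0.15), and P4hb, with 129 and 379.5 with TGFb2 and 554.5 and 624 with PBS (-1.34, adjusted p = 0.23). The P4hb value is from a probe set with the suffix _r_at, and its other probe set lay below the filter.

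Of 28 tested cytosolic co-chaperones and related stress genes, 0 passed with limma, 2 were lower at an unadjusted p under 0.05 (beside 6.01% of all genes), and the median was 0.047. No heat shock factor gene was tested, since Hsf2 and Hsf4 lay below the level filter. The farthest members were Cryaa, a lens crystallin with chaperone activity, with 18.8 and 16.1 with TGFb2 and 43.6 and 75.6 with PBS (-1.17, adjusted p = 0.15), and Ttc1, an Hsp90-binding protein, with 122 and 118 with TGFb2 and 191 and 182 with PBS (-0.58, adjusted p = 0.22). Of 18 genes of mitochondrial import and proteases, 0 passed with limma, 0 had an unadjusted p under 0.05 (beside 12.1% of all genes) and the median was -0.031, with Tomm40, the import pore, at -0.49 and Phb2, a prohibitin, at -0.39 (adjusted p = 0.56 and 0.47). The differences of that list ran from -0.49 to 0.30.

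Of 13 prolyl isomerases, 0 passed with limma, 2 were higher and 1 lower at an unadjusted p under 0.05 (beside 6.06% and 6.01% of all genes), and the median was 0.12. Fkbp11, an ER member of the FK506-binding family, had the lowest adjusted p of the genes in the 4 lists and the symbol set that did not pass, with 91.6 and 75.6 with TGFb2 and 27.2 and 32.5 with PBS (1.13 ± 0.22, SE, adjusted p = 0.0667). It passed with the replicate number as a block (adjusted p = 0.0141). Fkbp8, of the mitochondrial membrane, had 2008 and 787 with TGFb2 and 932 and 715 with PBS, with overlap (0.62, adjusted p = 0.60).

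**Figure D5:**
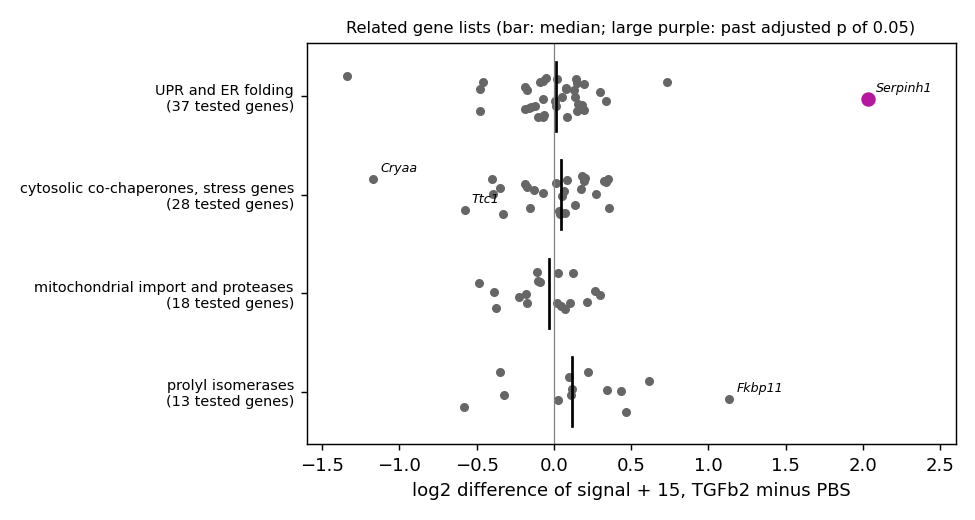
Log2 difference of signal + 15, TGFb2 minus PBS, for every tested gene (points) of 4 related lists, with the list median as a bar. The large purple point is Serpinh1 at 2.04, the 1 gene past an adjusted p of 0.05, and Fkbp11 stands at 1.13.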

How the data were processed

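The authors deposited probe set intensities of 4 Affymetrix arrays, made with MAS5 per the submitters' processing notes, with no version named. Values were then taken to log2 from the deposited linear signals. The 12488 probe sets include 66 controls, which were left out of the tests, and 10833 with 1 gene symbol, 396 with several and 1193 with none. All 86 chaperone probe sets matched the symbol of their gene ID in the GRCm38.p6 RefSeq table. No further scaling was applied, since trimmed means were equal. Precision is limited by the number of arrays.

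The scale was log2(signal + 15), and differences on this scale understate changes of dim genes. The 7453 probe sets at or above the 40th percentile of the mean log2 level were fitted in R 4.3.3 with limma 3.58.1 (TGFb2 minus PBS by lmFit and trended eBayes, two-sided, Benjamini-Hochberg over all tested probe sets, threshold 0.05), and the fit was checked on simulated data. Each gene is represented by its brightest tested probe set. For some genes, such as Dnajc2, Dnajc8 and Hspbp1, this is a probe set whose identifier carries a suffix. Intervals are 95% intervals of that fit. Genes given with full values were all those past the threshold, the 2 with the highest signal of each family in each compartment, the 3 with the farthest non-overlapping difference in each of 3 compartments and, for related lists, those that passed or else the 2 farthest. Other members described by role were added after their values were seen. The genes, lists and compartments were chosen with earlier results of these data known. Promoter sequences are from RefSeq. Alternatives covered the pseudocount, normalization, filter, variance model, replicate block, choice of probe set and omission of single arrays.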

Additional observations from a re-analysis of the deposited data

How the results depend on the processing

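The number of probe sets past the threshold over the whole table was 88. It was 57 without a pseudocount, 6 without the level filter, 16 without the intensity trend, 320 with the replicate block and 11 to 42 when 1 array was left out (11 without TGFb2 replicate 1, 25 without TGFb2 replicate 2, 42 without PBS replicate 1 and 34 without PBS replicate 2), where the lone array is assumed to vary like the other group. The number of chaperone genes past it was 0, 1 with the replicate block, and 0 to 1 with an array left out, the 1 being Hspd1 in each case. Same-numbered arrays had deviations that correlated at 0.15 over the tested probe sets. With 2 pairs this does not show that the numbers pair the arrays. The related lists held 1 passing gene, 0 without the filter or the trend, 5 with the replicate block and 0 to 2 with an array left out (0 without TGFb2 replicate 1, 2 without TGFb2 replicate 2).

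The ER median of 0.14 was 0.10 with the pseudocount of 60 and 0.091 with the mean of all probe sets of a gene, and ran from -0.039 to 0.14 with an array left out, the lowest without TGFb2 replicate 2. The cytosolic median of -0.082 was -0.16 without probe sets whose identifier carries a suffix, and ran from -0.17 to -0.078 with an array left out, the lowest without TGFb2 replicate 1. The mitochondrial median ran from -0.33, without TGFb2 replicate 1, to -0.12. The ER minus cytosolic gap of 0.23 was 0.31 without suffixed probe sets and ran from 0.040, without TGFb2 replicate 2, to 0.25 with an array left out. The cause of these shifts was not tested. The counts of negative differences per class with an array left out were chosen after seeing the data.

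Of 31 named chaperone genes, each by its brightest probe set, 24 kept their sign under every alternative applied to single genes. The other 7 changed it, each when an array was left out. Those ranges were -0.19 to 0.52 for Canx, -0.23 to 0.15 for Dnaja1, -0.14 to 0.074 for Dnaja3, -0.12 to 0.18 for Dnajc10, -0.27 to 0.35 for Hspb2, -0.17 to 0.38 for Hspbp1 and -0.33 to 0.11 for Hspe1. Hspd1 ran from -1.70 to -0.63 in its brightest probe set. The choice of probe set was not among the alternatives applied to single genes. Hspd1, Hspa4 and Dnajc8 are counted as keeping their sign, although their probe sets disagree in sign. Dim genes such as Pdia5 are limited by their closeness to background.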
